A study of Mus musculus with 27 samples.

Results

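Vascular smooth muscle (SM) cells and early hemogenic endothelial (HE1) cells arise side by side from the hemangioblast, and the comparison described here sets 3 untreated SM arrays against 2 untreated HE1 arrays, 5 of the 27 arrays of the series. The arrays were taken by their sample labels, as those of both populations without doxycycline (DOX). Both populations came from a mouse embryonic stem cell (ESC) line with a Flag-tagged dominant-negative FOS (dnFOS) cassette at the Hprt locus that is switched on by DOX, so the silent cassette was carried by every cell compared. Embryoid bodies were grown for 3.75 days, FLK1+ cells were purified, and blast cultures were kept for 48 h before sorting. HE1 cells were sorted as KIT+TIE2+CD41- cells, and the gate used for SM cells was not given in the sources used here. For comparison, SM and HE1 cells that had received 1 µg/ml DOX were measured on 2 arrays each. The cells were cultured derivatives of a targeted ESC line grown on feeder fibroblasts, not cells of an embryo. The labels do not say that replicates were separate differentiations, so p-values measure the spread between the samples of this series only.

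Hemogenic endothelium is the specialised endothelium from which the first blood cells bud, and it carries endothelial surface receptors and junction proteins together with a set of blood transcription factors. Smooth muscle cells are built around an actin and myosin apparatus whose genes are driven by serum response factor (SRF) with its coactivators of the myocardin family, and TEAD factors with YAP and AP-1 are known to act on matrix and contractile genes in such cells. AP-1 is formed by FOS and JUN proteins, and dnFOS, which blocks its binding to DNA, was not induced in these samples because none had received DOX.

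RNA was hybridised to one-colour Agilent mouse arrays. The values below are log2 signals relative to the 75th percentile of the array, differences are SM minus HE1, and a gene is called at an adjusted p under 0.05 (limma, Benjamini-Hochberg adjustment over all genes tested) and at least a 2-fold difference. The 75th percentile of the signal was 396, 492 and 230 on the SM arrays and 140 and 145 on the HE1 arrays, and no spot was saturated. SM replicate 2 stood apart: 89.6% of its probes were well above background, against 59.5% and 55.8% for SM replicates 1 and 3 and 53.6% and 70.4% for HE1 replicates 1 and 2. Across the genes tested it correlated with SM replicates 1 and 3 at r = 0.932 and 0.916, and with HE1 replicate 2, which lay on the same slide, at r = 0.962. Its closest array of all was an SM array with DOX, SM_DOX replicate 2, again on that slide (r = 0.967). SM replicate 3 and HE1 replicate 1 shared another slide, and SM replicate 1 lay on a slide without an untreated HE1 array. The number of arrays limits the precision of every value, so many results, but not all, are given with and without SM replicate 2. In sorted bulk samples, fewer cells of a type and less RNA per cell cannot be told apart.

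Of 23408 genes or transcripts tested, 73 were called higher in SM cells (0.312%) and 51 higher in HE1 cells (0.218%), 124 in all (0.530%). In all 124 the SM arrays did not overlap the HE1 arrays, which also held for 13.1% of all genes tested with SM above and for 10.8% with HE1 above. The median difference was -3.56 over the genes called higher in HE1 and 2.97 over those called higher in SM, against -0.06 over all genes tested. Without SM replicate 2, 229 genes were called higher in SM (0.976%) and 313 higher in HE1 (1.33%), and these held 71 of the 73 and 51 of the 51 genes. With limma, 0 genes were called without SM replicate 1, SM replicate 3 or HE1 replicate 2, where the smallest adjusted p was 0.0609, 0.0927 and 0.0731 and 1469, 1586 and 1496 genes had an unadjusted p under 0.05, and 90 and 7 genes were called without HE1 replicate 1. The direction of all 124 differences was the same in each of these 5 fits, which was fixed in advance because their arrays did not overlap. With the slide as a fixed block, 75 and 42 genes were called, which held 38 of the 73 and 28 of the 51. Of the 50 called genes named in the text, 31 were called with that block and 19 were not, with adjusted p-values of 0.0506 to 0.0928.

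**Figure D1:**
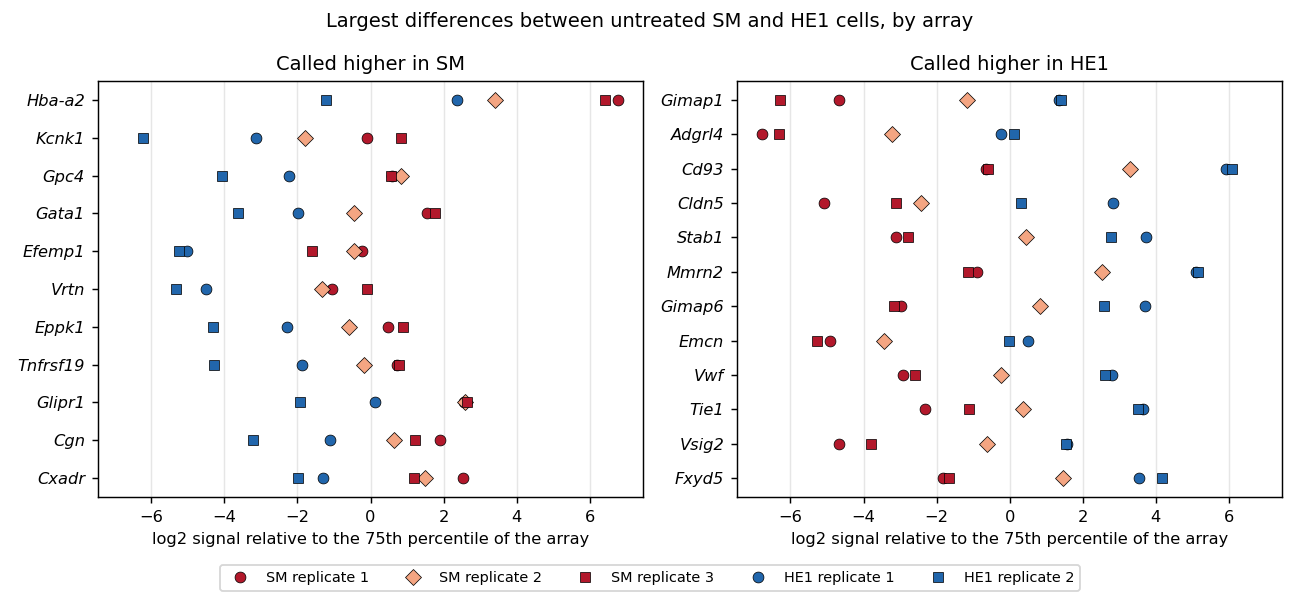
Log2 signal relative to the 75th percentile of the array (horizontal axis) for genes with the largest differences, 11 of the 12 higher in SM and all 12 higher in HE1, with 1 symbol per array (red and orange for SM, blue for HE1). The SM and HE1 arrays did not overlap for any of these genes, and SM replicate 2 (orange diamonds) lay between the other SM arrays and the HE1 arrays for all 12 genes higher in HE1.

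Of the 12 largest differences towards HE1, 6 were of genes on a list of endothelial receptors and junction genes. Cd93, which encodes a C-type lectin receptor of endothelial cells, had log2 signals of 5.93 and 6.08 on the HE1 arrays and -0.64, 3.29 and -0.61 on the SM arrays. The difference was -5.33 (SE 1.06, adjusted p = 0.033), or 40.1-fold, and -6.63 (adjusted p = 0.00169) without SM replicate 2. With the slide as a fixed block the difference was -4.38 (adjusted p = 0.0544), which missed the threshold. The groups did not overlap, but the second SM array was closer to the HE1 arrays than to the other SM arrays. Cldn5, a tight junction protein of endothelium, reached 2.83 and 0.31 on the HE1 arrays and -5.08, -2.42 and -3.11 on the SM arrays, a difference of -5.11 (SE 0.97, adjusted p = 0.0291). Mmrn2, an endothelial matrix protein that binds CD93, differed by -4.96 (SE 1.00, adjusted p = 0.0341). The orphan adhesion receptor Adgrl4, which is found on endothelial cells, had values of -0.23 and 0.11 on the HE1 arrays and -6.79, -3.22 and -6.31 on the SM arrays, a difference of -5.38 (SE 1.04, adjusted p = 0.0291). For Adgrl4 1 of the 3 SM arrays was well above background, namely replicate 2, and for Cldn5 2 of 3. With the slide as a block, Cldn5 and Mmrn2 were called (adjusted p = 0.0292 and 0.039) and Adgrl4 was not (adjusted p = 0.0766).

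The rest of that group of 12 comprised the scavenger receptor gene Stab1 (-5.08), the sialomucin gene Emcn (-4.78), the von Willebrand factor gene Vwf (-4.61), the receptor gene Tie1 (-4.60), Vsig2 (-4.58), Fxyd5 (-4.53), and the immune-associated GTPase genes Gimap1 and Gimap6, which lie on the same chromosome. Gimap1 had the largest difference of all called genes, -5.42 (SE 1.05, adjusted p = 0.0291), with values of 1.35 and 1.41 on the HE1 arrays and -4.66, -1.16 and -6.28 on the SM arrays. For Gimap1 and Emcn 2 of the 3 SM arrays were well above background. Gimap6 differed by -4.92. The Vsig2 value depended on the probe, since its other probe gave -2.15. Gimap1, Gimap6 and Tie1 were not called with the slide as a block (adjusted p = 0.0645, 0.0783 and 0.0506).

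Among 30 receptors and junction genes of endothelium, 29 were tested. All 29 differences pointed to HE1, with a median of -4.59 against -0.06 over all genes tested. In 26 of them both HE1 arrays lay above all SM arrays, against 10.8% of all genes tested. Of these, 7 were called (Cldn5, Cd93, Mmrn2, Emcn, Vwf, Tie1 and Eng), and without SM replicate 2 the number was 19 with a median of -5.29. Cdh5, the VE-cadherin gene of endothelial junctions, had values of 4.92 and 6.05 on the HE1 arrays and -1.33, 4.16 and -0.61 on the SM arrays, a difference of -4.74 (SE 1.40, adjusted p = 0.138) with all 5 arrays and -6.45 (adjusted p = 0.00836) without SM replicate 2. Icam2, an adhesion receptor gene, had 6.79 and 6.83 on the HE1 arrays and -0.43, 5.24 and -0.54 on the SM arrays. In both genes SM replicate 2 lay near the HE1 arrays and the other SM arrays far below. On SM replicate 2 the median of the 29 genes lay 2.68 above the mean of the other SM arrays, against 0.55 over all genes tested, and the value was above both other SM arrays for 28 genes. The summed level of the list, in multiples of the 75th percentile of the array, was 77.4, 614 and 67.2 on the SM arrays and 1030 and 1571 on the HE1 arrays. Leaving that array out made the median difference larger, as given above.

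The smallest difference among the tested members of that list was that of a VEGF receptor. Kdr, which encodes the FLK1 receptor used to purify the starting cells, had values of 4.26 and 5.56 on the HE1 arrays and 3.60, 5.15 and 3.21 on the SM arrays, so the groups overlapped (-0.93, SE 0.75, adjusted p = 0.925). Flt1 differed by -2.22 (SE 0.91, adjusted p = 0.413) and Flt4, the receptor for VEGF-C, by -3.53 (SE 1.23, adjusted p = 0.253). In the separate list of VEGF and angiopoietin genes, with a median of 0.21 over 9 tested and none called, the ligand gene Vegfa differed by 0.51 and the co-receptor gene Nrp1 by 0.99. The 4 sorting markers had a median of -2.63, and as the gate for HE1 used 3 of them they are no findings. Kit was called (-4.07, SE 0.68, adjusted p = 0.0204), Tek, the TIE2 gene, was not (-3.04, SE 1.13, adjusted p = 0.314), and Itga2b, the CD41 gene for which HE1 cells were negative, had 1.16 and 0.69 on the HE1 arrays and -1.34, -1.28 and -1.29 on the SM arrays (-2.23, SE 1.02, adjusted p = 0.524).

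**Figure D2:**
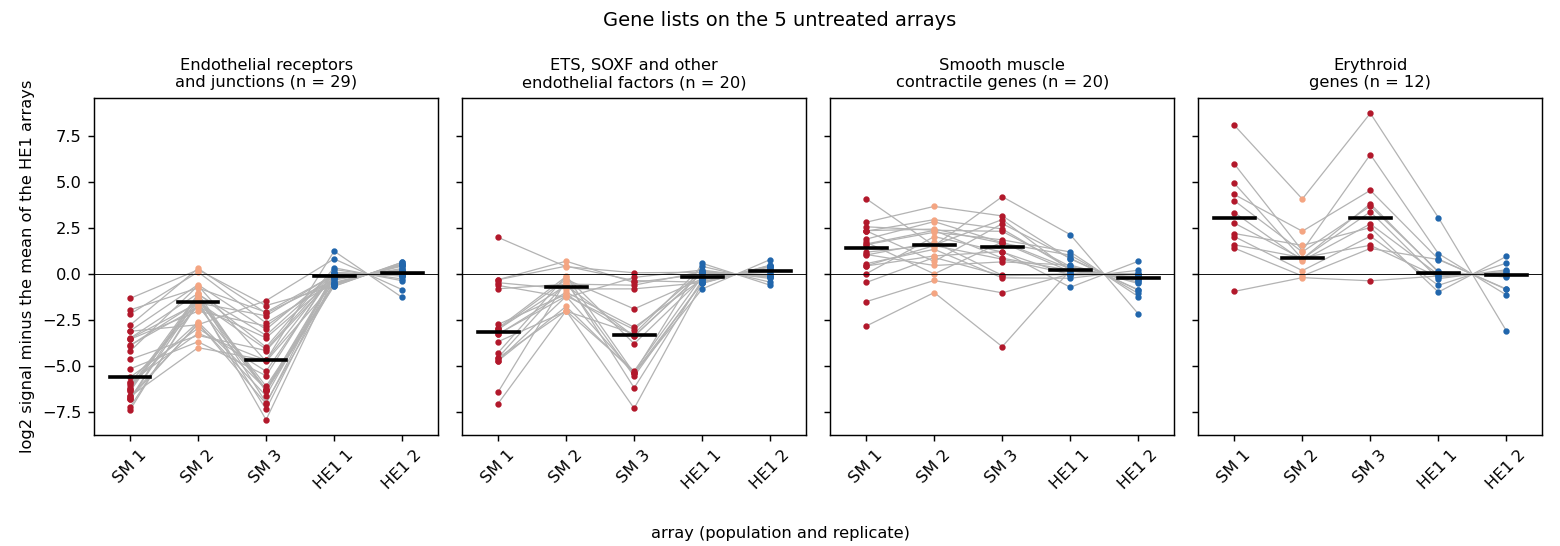
Log2 signal of each tested gene of 4 lists minus its mean on the HE1 arrays (vertical axis), on each of the 5 untreated arrays (horizontal axis), with lines joining a gene and bars at the median. Endothelial genes and factors were low on SM replicates 1 and 3 and intermediate on replicate 2, and erythroid genes were highest on SM replicates 1 and 3. Contractile genes on SM replicate 2 lay a median of 0.63 above the mean of the other SM arrays, against 0.55 over all genes tested.

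Endothelial transcription factors leaned the same way as the receptors. Of 20 ETS, SOXF and related factors tested, 19 had a negative difference, the median was -2.39, and Bcl6b alone was called (-3.94, SE 0.82, adjusted p = 0.038), but not with the slide as a block (adjusted p = 0.0892). Without SM replicate 2, 10 were called. Sox18, a SOXF factor of vessel development, read 2.74 and 3.73 on the HE1 arrays and -3.80, 1.25 and -4.07 on the SM arrays, a difference of -5.44 (SE 1.40, adjusted p = 0.084) and -7.17 (adjusted p = 0.00441) without that array. Erg, an ETS factor that maintains endothelial identity, differed by -3.75 (SE 1.07, adjusted p = 0.122), and Fli1, a closely related ETS factor, by -3.51 (SE 1.31, adjusted p = 0.317). Etv2, the ETS factor at the top of endothelial and blood specification, differed by -2.32 (SE 0.73, adjusted p = 0.176). These values did not pass the test with all 5 arrays, and the adjusted p without SM replicate 2 was 0.00836 for Erg, 0.0275 for Fli1 and 0.0135 for Etv2. Ldb2, a LIM-domain binding cofactor of endothelium outside the list, was the gene with the smallest adjusted p of the whole comparison, 0.0097: it had 2.25 and 1.43 on the HE1 arrays and -1.71, -1.70 and -1.90 on the SM arrays, and SM replicate 2 did not stand apart for it.

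In the Notch pathway, in which neighbouring cells signal through membrane-bound ligands and which takes part in arterial and hemogenic fate, 2 of 15 genes tested were called, both higher in HE1, and the median was -1.08. The receptor gene Notch4 had values of 3.29 and 3.16 on the HE1 arrays and -1.67, 0.56 and -1.29 on the SM arrays and differed by -4.03 (SE 0.68, adjusted p = 0.0204). Mfng, a glycosyltransferase that modifies Notch receptors, differed by -3.38 (SE 0.63, adjusted p = 0.0291). The receptors did not move as one, since Notch2 differed by 1.28 and Notch3 by 0.46, and the ligand genes Dll4 (-1.17), Jag1 (0.54) and Jag2 (-1.58) were not called. Plxnd1, a semaphorin receptor gene that guides vessels, differed by -4.03 (SE 0.88, adjusted p = 0.0467) and was the one called gene among 18 guidance genes tested, whose median was 0.07. Without SM replicate 2, 1 guidance gene was called higher in HE1 and 2 higher in SM (median 0.13), and over the 18 other fits 0 to 5 were called higher in SM. Among the other genes called higher in HE1 were Lyve1, a hyaluronan receptor of lymphatic and early embryonic endothelium (-3.46), the phosphodiesterase gene Pde2a (-4.17), the cytokine receptor subunit gene Csf2rb (-2.49) and the tyrosine kinase gene Jak3 (-2.39), which works downstream of cytokine receptors. The second probe for Csf2rb gave a difference of -0.69, and Csf2rb and Jak3 were not called with the slide as a block (adjusted p = 0.0797 and 0.0506).

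The genes called higher in SM cells were of mixed kinds, and many were dim in HE1 cells. Of the 73, 27 were not well above background on either HE1 array, so their difference is given as a lower bound on the scale of the processed signal. Efemp1, an extracellular matrix glycoprotein of the fibulin family, was at least 12.4-fold higher in SM cells (adjusted p = 0.0291), with -0.23, -0.44 and -1.61 on the SM arrays and -5.03 and -5.25 on the HE1 arrays. With normexp background correction, which adds an offset to dim signals, the Efemp1 difference was 1.14 (adjusted p = 0.438) and was not called, whereas it was 2.87 (adjusted p = 0.00158) with the authors' log2 values. Gpc4, a cell surface heparan sulfate proteoglycan, was detected on all 5 arrays with 0.60, 0.84 and 0.57 on the SM arrays and -2.24 and -4.07 on the HE1 arrays, a difference of 3.83 (SE 0.64, adjusted p = 0.0204) or 14.2-fold. Its SM values were close to each other, and the difference was 3.74 (adjusted p = 0.00941) without SM replicate 2. Vrtn was at least 11.8-fold higher (adjusted p = 0.0338, or 0.0571 with the slide as a block), with a difference of 1.15 (adjusted p = 0.576) under normexp. Glipr1, whose SM values were nearly equal, had 2.57, 2.59 and 2.65 on the SM arrays and 0.11 and -1.94 on the HE1 arrays and differed by 3.51 (SE 0.59, adjusted p = 0.0204).

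The 12 largest also held the potassium channel gene Kcnk1 (4.34), the TNF receptor family gene Tnfrsf19 (3.53), the cytoskeletal linker gene Eppk1 (3.55), the tight junction genes Cgn (3.40) and Cxadr (3.39), and the erythroid genes Hba-a2 and Gata1 described below. Of these, Kcnk1, Tnfrsf19 and Eppk1 were well above background on 1 of the 2 HE1 arrays, and none of these was called with the slide as a block (adjusted p = 0.0818, 0.0616 and 0.0928). Tnfrsf19 had a second probe, which gave -0.16. Perp, a desmosomal protein, was also called, with a difference of 2.34. Several of these are known from epithelial cells, as are Cgn and Eppk1, and the endoderm list, which holds the epithelial genes Cdh1, Epcam, Krt8 and Krt18, had a median of 1.79 over 7 genes tested with none called. The summed level of that list was 540, 406 and 378 on the SM arrays and 141 and 33.5 on the HE1 arrays. The part of other cell types in these differences was not tested.

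The contractile genes that name the population had mostly positive differences, but 0 were called (limma, all 5 arrays), where 10 had an unadjusted p under 0.05. Over all genes tested 0.530% were called, so a list of this size would hold few calls at that share. Over 18 other fits 0 to 6 contractile genes were called higher in SM, with at least 1 in 9 of the fits. Acta2 and Cnn1 were called under normexp (adjusted p = 0.0255 and 0.0288) and with the slide as a random block (adjusted p = 0.0476 and 0.0469). Of 20 tested, 18 had a positive difference and the median was 1.41 against -0.06 over all genes tested. In 9 of them all SM arrays lay above both HE1 arrays, against 13.1% of all genes tested. Acta2, the smooth muscle alpha-actin gene, had high signals in both populations, 9.58, 9.66 and 8.89 on the SM arrays and 8.24 and 6.16 on the HE1 arrays, and the difference was 2.17 (SE 0.61, adjusted p = 0.114), or 4.51-fold. The Acta2 difference was 3.21 without HE1 replicate 1 and 1.13 without HE1 replicate 2. Tagln, which encodes the actin-binding protein transgelin, read 9.05, 9.79 and 8.27 on the SM arrays and 7.61 and 7.19 on the HE1 arrays and differed by 1.64 (SE 0.86, adjusted p = 0.681). Cnn1, the calponin gene, had 4.23, 5.09 and 4.57 on the SM arrays and 2.24 and 0.55 on the HE1 arrays, the wider gap of 3.23 (SE 1.08, adjusted p = 0.223). In all of these the SM arrays lay above both HE1 arrays, and in Acta2 and Cnn1 the HE1 arrays were further from each other than the SM arrays were.

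Myocd, which encodes the SRF coactivator myocardin, was close to the threshold at 2.60 (SE 0.63, adjusted p = 0.0671) and was called with quantile normalization, the authors' log2 values, the slide as a random block and array weights (adjusted p = 0.0172, 0.00118, 0.0272 and 0.0137), with -1.09, -0.46 and -0.97 on the SM arrays and -3.15 and -3.73 on the HE1 arrays. Actg2, the enteric smooth muscle actin gene, had a larger difference of 3.29 (SE 0.99, adjusted p = 0.154) but overlapped between groups (3.14, 0.58 and 3.25 on the SM arrays and 1.18 and -3.13 on the HE1 arrays), and was the one member called without SM replicate 2 (4.17, adjusted p = 0.0314). It was also called with the slide as a random block and with array weights (adjusted p = 0.0434 and 0.00426). The Actg2 difference was 5.45 without HE1 replicate 1 and 1.14 without HE1 replicate 2. Myh11, the smooth muscle myosin heavy chain gene of mature cells, was dim: it was not well above background on the HE1 arrays, was at least 2.15-fold higher in SM cells by its bound and did not pass the test (adjusted p = 0.396), and its difference turned negative (-0.35) with normexp background correction. Myl9, the regulatory light chain gene of smooth muscle myosin, differed by 2.17 (SE 0.99, adjusted p = 0.529), with 5.01, 5.96 and 4.81 on the SM arrays and 3.25 and 2.94 on the HE1 arrays. Mylk, a myosin light chain kinase gene, ran the other way (-2.59, SE 1.07, adjusted p = 0.419, with 1 of 3 SM arrays well above background, called with array weights alone, adjusted p = 0.0209), and so did Smtn (-0.95, SE 0.51, adjusted p = 0.717). The summed level of the contractile list was 2245, 3166 and 1528 on the SM arrays and 1035 and 742 on the HE1 arrays. The defining contractile markers Acta2 and Tagln were thus present at high signal on every SM array, and also on every HE1 array.

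Some growth factor genes of the mesenchyme were called higher in SM cells. Among PDGF genes, the receptor genes Pdgfra (2.10, SE 0.57, adjusted p = 0.0949) and Pdgfrb (2.84, SE 0.72, adjusted p = 0.0782) and the ligand genes Pdgfa (2.12) and Pdgfc (2.77) had positive differences with no overlap between groups, whereas Pdgfb, a ligand made by endothelium, was negative (-1.84). None was called with 5 arrays, and Pdgfrb and Pdgfc were called without SM replicate 2 (adjusted p = 0.0429 and 0.0155). Tgfb2, a TGF-beta ligand gene, was called, with 4.67, 5.16 and 5.34 on the SM arrays and 2.92 and 1.92 on the HE1 arrays and a difference of 2.64 (SE 0.56, adjusted p = 0.0434) or 6.22-fold. With the slide as a block Tgfb2 was not called (adjusted p = 0.065). Its second probe gave 2.88. The 28 genes tested in the TGF-beta and BMP list, Tgfb2 included, had a median of 0.11 (0.02 without SM replicate 2, with 2 called higher in SM and 1 higher in HE1): Bmp4 differed by 2.35 (SE 0.53, adjusted p = 0.0524), Inhba by 3.57, and Acvrl1, the ALK1 receptor gene of endothelial cells, by -3.46 (SE 0.83, adjusted p = 0.0656). Fgf10 (2.25, SE 0.47, adjusted p = 0.038) and Sfrp2, a secreted Wnt antagonist gene (2.99, SE 0.58, adjusted p = 0.0291), were the only members of the cytokine and the Wnt lists called in the reported fit. The cytokine list had a median of 0.21, which was 0.02 without SM replicate 2, where 2 members were called higher in SM and 2 higher in HE1. The Wnt list had a median of 1.17, which was 1.59 without that array, where 2 were called higher in SM, and 8 were called with array weights.

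Of the AP-1, TEAD and Hippo genes, on which the study turned, Jdp2 and Tead3 were called higher in SM, where 0.312% of all genes tested were called. Lists this short would hold few calls at that share. Of 10 AP-1 genes tested, with a median of 0.38, Jdp2, which encodes a partner of JUN proteins, was called: it had 3.14, 3.59 and 4.01 on the SM arrays and 1.85 and 1.31 on the HE1 arrays, a difference of 2.00 (SE 0.38, adjusted p = 0.0291). Fos had 4.30, 4.54 and 3.53 on the SM arrays and 2.12 and 3.45 on the HE1 arrays and Jun 5.49, 6.60 and 5.60 on the SM arrays and 6.82 and 6.43 on the HE1 arrays. Neither was called, with differences of 1.34 (SE 0.75, adjusted p = 0.738) and -0.73 (SE 0.52, adjusted p = 0.889), and the same held for Fosb (0.50), Fosl2 (0.80), Junb (0.47), Jund (-0.22), Atf2 (0.30) and Atf3 (-0.33). Batf3 had both HE1 arrays above all SM arrays, with an adjusted p of 0.0524 just outside the threshold for its difference of -2.54. Since Fos and Junb are also induced by handling of cells, the early response and stress list was counted as well: of 12 genes tested none was called and the median was 0.48. That median was 0.78 without SM replicate 2, where 1 was called higher in SM, and 1.22 between the arrays of the slide that held SM replicate 3 and HE1 replicate 1, against 0.30 on the slide of SM replicate 2 and HE1 replicate 2.

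Tead3 was called among 17 TEAD and Hippo genes, whose median was 0.49: it had -1.19, -1.33 and -1.03 on the SM arrays and -3.57 and -3.66 on the HE1 arrays and a difference of 2.43 (SE 0.50, adjusted p = 0.0372) or 5.4-fold. Replicates of either population lay close together, and the adjusted p was 0.053 with the slide as a block. Tead4, whose binding the study followed, had -0.58, 0.23 and -0.93 on the SM arrays and -0.99 and -0.70 on the HE1 arrays, and the groups overlapped (0.42, SE 0.57, adjusted p = 0.943). Tead1 differed by 0.83, Tead2 by 0.35, Yap1 by 0.16 and Wwtr1, which encodes TAZ, by -0.16. Of 14 widely used YAP and TEAD target genes tested, all had a positive difference and the median was 1.24. In 11 the groups did not overlap, against 13.1% of all genes tested with SM above, and Tgfb2 was the one called as reported. Of these targets 5 were called with the authors' log2 values, 4 with the slide as a random block, 4 with array weights and 3 with normexp, and 0 to 5 over the 18 other fits. Of 17 genes taken from the study's account of FOS and JUN targets and of dnFOS, which it chose partly on these arrays, 15 were positive with a median of 1.13, and Tgfb2 was again the one called in the reported fit. Without SM replicate 2, 3 of them were called, with the authors' log2 values 5 and with array weights 6. The study gives that ligand as Tgfb with no number, and Tgfb2 was taken for it here. Pdgfc (2.77, SE 0.64, adjusted p = 0.0568) was near the threshold, and Col4a1 (-0.86) and Bmp1 (-0.75) had negative differences.

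The promoters of a few of these genes are shown because the study turned on TEAD and AP-1 binding. The sequences are the 250 bases before a RefSeq transcript start (GRCm38.p6), 5′ to 3′ on the strand of the gene. Capitals mark matches on either strand to GGAATG, the core letters bound by TEAD factors, to CCGGAA, those bound by ETS factors, or to the CArG box bound by SRF. The CArG box was counted only as CCWWWWWWGG, with W for A or T. Stretches with a G or C among the inner letters, such as ccctatatgg and ccttgtttgg in the Acta2 window, were neither marked nor counted. Acta2 and Myl9 stand for the contractile genes, Tead3 and Gpc4 for genes called higher in SM, and Adgrl4 and Gimap1 for genes called higher in HE1. They were picked for holding a match, after the matches were known.
Acta2 (chr19:34255374-34255623, minus strand): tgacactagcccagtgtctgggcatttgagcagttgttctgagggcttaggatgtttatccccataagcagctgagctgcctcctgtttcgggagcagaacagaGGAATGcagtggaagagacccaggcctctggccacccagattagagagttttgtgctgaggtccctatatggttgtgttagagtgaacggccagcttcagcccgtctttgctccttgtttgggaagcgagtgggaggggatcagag
Myl9 (chr2:156775214-156775463, plus strand): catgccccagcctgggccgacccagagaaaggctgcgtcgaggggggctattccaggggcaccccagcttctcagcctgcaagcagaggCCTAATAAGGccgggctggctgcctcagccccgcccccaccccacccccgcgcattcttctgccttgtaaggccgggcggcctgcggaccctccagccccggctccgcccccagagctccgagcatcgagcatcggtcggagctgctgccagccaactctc
Tead3 (chr17:28350601-28350850, minus strand): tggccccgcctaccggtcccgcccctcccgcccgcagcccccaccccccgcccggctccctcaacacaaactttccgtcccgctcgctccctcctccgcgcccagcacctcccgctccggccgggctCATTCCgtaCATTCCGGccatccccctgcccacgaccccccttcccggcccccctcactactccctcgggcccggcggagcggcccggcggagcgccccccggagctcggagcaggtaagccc
Gpc4 (chrX:52164924-52165173, minus strand): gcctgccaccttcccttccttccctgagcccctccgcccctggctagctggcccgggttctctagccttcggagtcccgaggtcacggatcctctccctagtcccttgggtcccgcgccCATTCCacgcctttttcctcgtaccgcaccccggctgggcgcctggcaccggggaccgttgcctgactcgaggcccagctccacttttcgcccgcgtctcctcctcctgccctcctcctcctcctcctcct
Adgrl4 (chr3:151437632-151437881, plus strand): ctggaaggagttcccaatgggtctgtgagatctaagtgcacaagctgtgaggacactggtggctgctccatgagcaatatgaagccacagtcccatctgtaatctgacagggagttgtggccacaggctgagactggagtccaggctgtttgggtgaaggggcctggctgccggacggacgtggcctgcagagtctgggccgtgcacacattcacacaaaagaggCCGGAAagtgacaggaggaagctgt
Gimap1 (chr6:48738797-48739046, plus strand): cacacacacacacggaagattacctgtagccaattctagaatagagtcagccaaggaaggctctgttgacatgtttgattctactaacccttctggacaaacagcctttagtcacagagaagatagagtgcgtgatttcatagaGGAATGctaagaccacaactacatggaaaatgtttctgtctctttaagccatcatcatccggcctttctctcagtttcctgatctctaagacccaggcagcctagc

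In the Tead3 window the second TEAD match overlaps the ETS match. Over the whole RefSeq table, 12.6% of 32851 windows held the TEAD letters, 3952 the ETS letters, 6.75% TGANTCA (the AP-1 letters), 9.99% AGATAA, the letters of blood GATA factors, and 1.47% a CArG box, again on either strand. Over the windows of genes tested here the TEAD letters were in 11.2%, the ETS letters in 19.4%, the AP-1 letters in 4.79%, the GATA letters in 6.49% and a CArG box in 1.32%. Of the genes called higher in SM, 48 of 73 matched by symbol, with 69 windows. Of these, 24.6% held the TEAD letters, 2.90% the AP-1 letters, 5.80% the ETS letters and 11.6% the GATA letters. Of the genes called higher in HE1, 32 of 51 matched, with 48 windows. Of these, 12.5% held the TEAD letters, 4.17% the AP-1 letters, 4.17% the ETS letters and 8.33% the GATA letters. Among contractile genes 40.0% of 20 windows held the TEAD letters and 15.0% a CArG box, and among endothelial receptor and junction genes 5.88% of 17 windows held the TEAD letters and 0 a CArG box. Windows of one gene can overlap, and a match is a description of letters, with no binding measured here.

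Hematopoietic factors did not differ in one direction. Of 20 tested, 8 were positive and 12 negative, with a median of -0.24. Gata1, the erythroid and megakaryocytic GATA factor, was called higher in SM cells: its values were 1.54, -0.46 and 1.76 on the SM arrays and -1.98 and -3.63 on the HE1 arrays, a difference of 3.75 (SE 0.77, adjusted p = 0.0372) or 13.5-fold (adjusted p = 0.069 with the slide as a block). Runx1, the factor required for the endothelial-to-hematopoietic transition, read 0.77, 1.32 and 0.99 on the SM arrays and 0.07 and -0.52 on the HE1 arrays, with all SM arrays above both HE1 arrays but no call (1.25, SE 0.62, adjusted p = 0.618). Among those with negative differences, none of them called with all 5 arrays, Lyl1 differed by -3.20 (SE 1.00, adjusted p = 0.175), Lmo2 by -2.53 (SE 0.73, adjusted p = 0.128), Tal1 by -1.97 (SE 0.89, adjusted p = 0.508) and Gfi1 by -2.31 (SE 1.00, adjusted p = 0.471). Lyl1, Lmo2 and Gfi1 were called without SM replicate 2 (adjusted p = 0.0241, 0.0352 and 0.0429). The Gfi1 value on SM replicate 2 lay between the HE1 values.

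Erythroid genes had mostly positive differences, and a globin gene had the largest difference of the genes called higher in SM. Hba-a2, an adult alpha-globin gene, had 6.78, 3.42 and 6.43 on the SM arrays and 2.37 and -1.21 on the HE1 arrays, a difference of 4.96 (SE 1.07, adjusted p = 0.0455) or 31.2-fold (adjusted p = 0.0619 with the slide as a block). Alpha-globin genes are near-identical copies, so their probes may share signal. The embryonic globin genes Hba-x (5.44, 1.42 and 6.09 on the SM arrays and 0.41 and -5.76 on the HE1 arrays) and Hbb-bh1 (8.25, 5.63 and 7.63 on the SM arrays and 4.87 and 4.91 on the HE1 arrays) were not called, with differences of 6.99 (SE 1.72, adjusted p = 0.07) and 2.28 (SE 0.81, adjusted p = 0.274). For Hba-x 1 of the 2 HE1 arrays was well above background. Over 12 erythroid genes tested the median was 2.31, and 9 had no overlap with SM above, against 13.1% of all genes tested. Gata1 was the one called (Hba-a2 is not on the list), against 5 without SM replicate 2. The summed level was 499, 70.1 and 366 on the SM arrays and 42.5 and 42.8 on the HE1 arrays. On SM replicate 2 these genes were low, below both other SM arrays for 11 of 12, so that array had less erythroid and more endothelial signal than its replicates. Whether erythroid cells were among the sorted SM cells was not tested.

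Markers of further cell types were counted in the same way. Cardiac muscle genes had a median of 0.89 over 13 tested, with Myl7, an atrial myosin light chain gene, called and at least 5.1-fold higher in SM cells (adjusted p = 0.0204), but not called under normexp with 0.31 (adjusted p = 0.82), and their summed level was 73.1, 231 and 77.1 on the SM arrays and 22.9 and 21.9 on the HE1 arrays. Mesothelium and fibroblast genes had a median of 2.15 over 12, with none called. Col1a1, the fibrillar collagen gene among them, separated the HE1 arrays from each other more than it separated the populations: it had 5.39, 4.09 and 5.66 on the SM arrays and 4.34 and -1.72 on the HE1 arrays, with a difference of 3.74 (SE 1.27, adjusted p = 0.235). Collagen and matrix genes had a median of 0.92 over 27, mesenchymal and cardiac factors 0.85 over 28 and pluripotency genes 1.27 over 9, all with none called. Of 12 myeloid genes 5 were positive and 7 negative (median -0.24, or -0.51 without SM replicate 2), and of 7 megakaryocyte genes 2 and 5 (median -1.22), also with none called.

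Proliferation genes separated the populations little. Over 18 cell cycle genes the median was 0.14 and none was called, against a median of -0.12 and 1 call higher in SM without SM replicate 2. Cdkn2b, which encodes the cell cycle inhibitor p15INK4b, had 2.27, 2.23 and 0.08 on the SM arrays and -1.69 and -1.43 on the HE1 arrays, with no overlap between groups and a difference of 3.09 (SE 1.10, adjusted p = 0.27). Cdkn1c, the p57 gene, overlapped (1.47, SE 0.75, adjusted p = 0.656), Cdkn2a had 2.40, 3.42 and 2.81 on the SM arrays and 2.92 and 1.99 on the HE1 arrays (0.42, SE 0.56, adjusted p = 0.943), and Cdkn1a (-0.22), Cdkn1b (0.33), Cdkn2c (-0.71) and Cdkn2d (-0.35) were not called either. The median over the 7 CDK inhibitor genes was 0.33, or 0.15 without SM replicate 2. The integrin and laminin list (0.44 over 20), the protease list (0.55 over 18), and the SRF and MRTF list (0.59 over 9) had no called member.

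Within the slide that held SM replicate 3 and HE1 replicate 1, all 73 and all 51 called genes differed in the same direction as in the fit, with medians of 2.50 and -4.31. Within the slide that held SM replicate 2 and HE1 replicate 2 the direction was also the same for all, with medians of 3.03 and -2.22. These arrays had entered the fit, so the counts describe the values and are no second test. The endothelial receptor and junction list had a median of -4.75 on the first of these slides and -1.73 on the second, and the contractile list 1.04 and 1.79. The erythroid list had 3.53 and 0.73.

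The same populations with DOX were on other arrays and gave a second reading of the difference. Of 24323 genes tested there, 15 were called higher in SM (0.0617%) and 14 higher in HE1 (0.0576%). Of the 73 genes called higher in untreated SM cells, 72 were tested with DOX, all 72 were again higher in SM, 69 without overlap between groups (10.4% of all genes tested with DOX) and 9 called, Tnfrsf19, Cxadr and Icam4 among them. All 51 called higher in untreated HE1 cells were higher in HE1 with DOX, all without overlap (14.7% of all genes) and 9 called, among them Mfng, Notch4, Kit, Ldb2, Pde2a, Hid1, Stap2 and Tgm2. Notch4 differed by -4.04 with DOX against -4.03 without, Ldb2 by -3.80 against -3.61 and Cd93 by -4.89 against -5.33. The contractile genes Cnn1 (2.94 with DOX), Acta2 (1.28) and Myocd (3.06, adjusted p = 0.0771) were positive with DOX too and not called. Over 22542 genes the differences without and with DOX correlated at r = 0.804, and 80.5% had the same sign. Genes are not independent replicates, and both pairs of groups share slides.

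**Figure D3:**
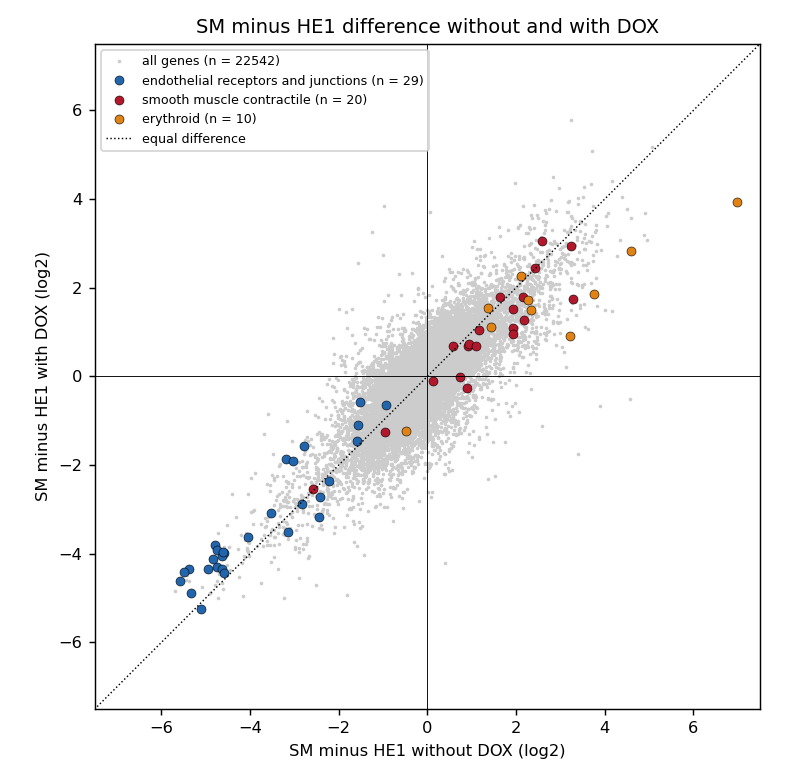
SM minus HE1 difference on the log2 scale without DOX (horizontal axis) and with DOX (vertical axis) for 22542 genes (grey), with 3 gene lists in colour and a dotted line of equal difference. Endothelial genes lie at the lower left and most contractile genes at the upper right, and erythroid genes such as Hba-x lie below the line.

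No gene was found whose SM minus HE1 difference changed with DOX. Of 25189 genes tested for this with limma's interaction contrast, 0 were called, 118 had an unadjusted p under 0.05, and the smallest adjusted p was 0.937. That value belonged to F13a1, the coagulation factor XIII A gene, whose difference was -4.54 with DOX and 0.10 without, where it was too dim to be tested. Next were Myo1f, a myosin of blood cells, with 0.92 and -2.39, and Efcab6, also too dim without DOX, with -0.73 and 3.57. The standard error of the change had a median of 0.95 over these genes, so changes of the size of most untreated differences were not detectable with this number of arrays. Tgfb2 differed by 0.97 with DOX, a change of -1.67 (SE 0.84, adjusted p = 1).

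To place both populations, the lists were read on the other untreated arrays, with HE1 as the common reference, so these values share the HE1 arrays and are given side by side without a test. The endothelial receptor and junction list had medians of -5.44 in FLK1+ cells, -4.59 in SM, -1.11 in late hemogenic endothelium (HE2) and -1.90 in hematopoietic progenitors (HP), and in complete cultures after 1 day (d1 BC) it lay between FLK1+ and SM cells. Contractile genes in FLK1+, d1 BC, SM, HE2 and HP cells had -0.40, 1.75, 1.41, -0.97 and -0.61. Myeloid genes were highest in HP cells at 4.38 and were at -0.24 in SM cells. Erythroid genes were at 2.31 in SM cells and 0.92 in HP cells.

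**Figure D4:**
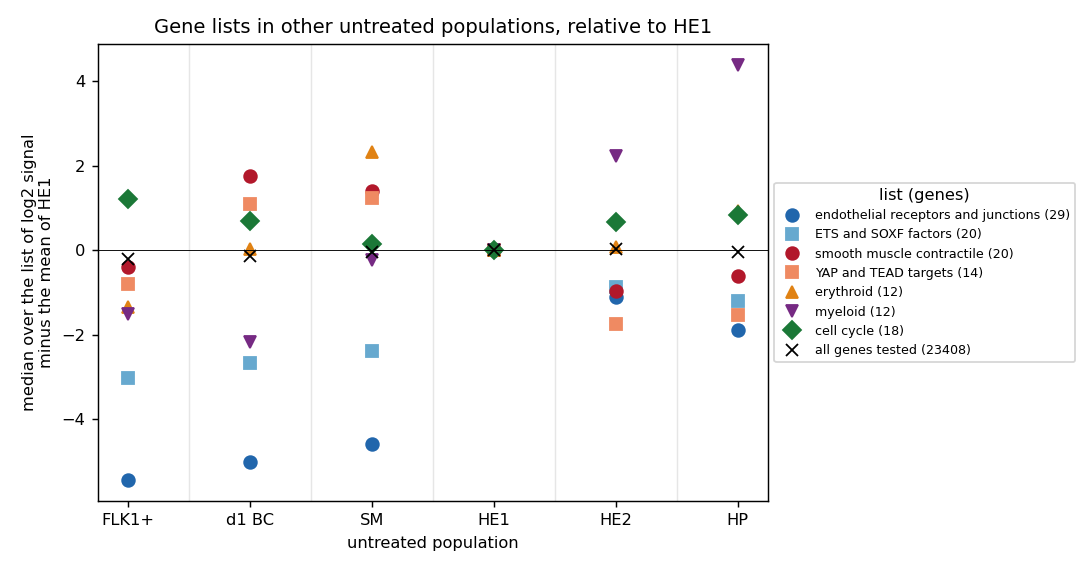
Median over each list of the log2 signal minus the mean of the untreated HE1 arrays (vertical axis) in 6 untreated populations (horizontal axis), with the number of genes in the legend. Endothelial genes were highest in HE1, contractile genes were highest in d1 BC and SM, and erythroid genes had their highest median in SM.

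The number of calls varied widely with the processing. All 124 called genes kept their direction under 17 of the 18 other fits and 117 of 124 under the normexp background correction. Since the SM and HE1 arrays did not overlap for these genes, a fit to the same values or with an array left out could not change their direction. With the authors' processed log2 values 410 and 337 genes were called, and with array quality weights 808 and 713, whereas a limma fit to the 5 arrays alone called 0 (1330 genes at an unadjusted p under 0.05). Lists with no called member as reported held calls in some of the 18 fits: at most 7 each higher in SM among collagens, mesenchymal factors and mesothelium genes, 4 among PDGF, protease and endoderm genes, 3 among integrins and pluripotency genes, 2 among VEGF genes and 1 among SRF, cell cycle, CDK inhibitor and early response genes, and at most 3 in any of these lists higher in HE1. Calls higher in HE1 ranged from 0 to 23 for endothelial receptors and junctions and from 0 to 12 for ETS and SOXF factors, and calls higher in SM from 0 to 10 for erythroid genes, 8 for Wnt genes, 6 for FOS and JUN targets, 5 for guidance genes and YAP and TEAD targets, 4 for TGF-beta and BMP genes, 3 for cytokines and cardiac muscle genes, 2 for hematopoietic factors and 1 for AP-1, TEAD and Notch genes. In these lists up to 6 hematopoietic factors, 4 Notch genes, 2 cytokines, 2 TGF-beta and BMP genes, 1 AP-1 gene and 1 guidance gene were called higher in HE1. Without SM replicate 2, calls higher in SM were also made among mesenchymal factors (2), pluripotency genes (2), integrins and laminins (2), proteases (1), endoderm genes (1) and VEGF genes (1), and 1 megakaryocyte gene and 1 AP-1 gene were called higher in HE1. Median scaling moved the median difference of all genes by 0.29 and called 28 genes higher in SM and 38 higher in HE1, so 42.4% of calls pointed to SM, against 58.9% as reported.

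**Figure D5:**
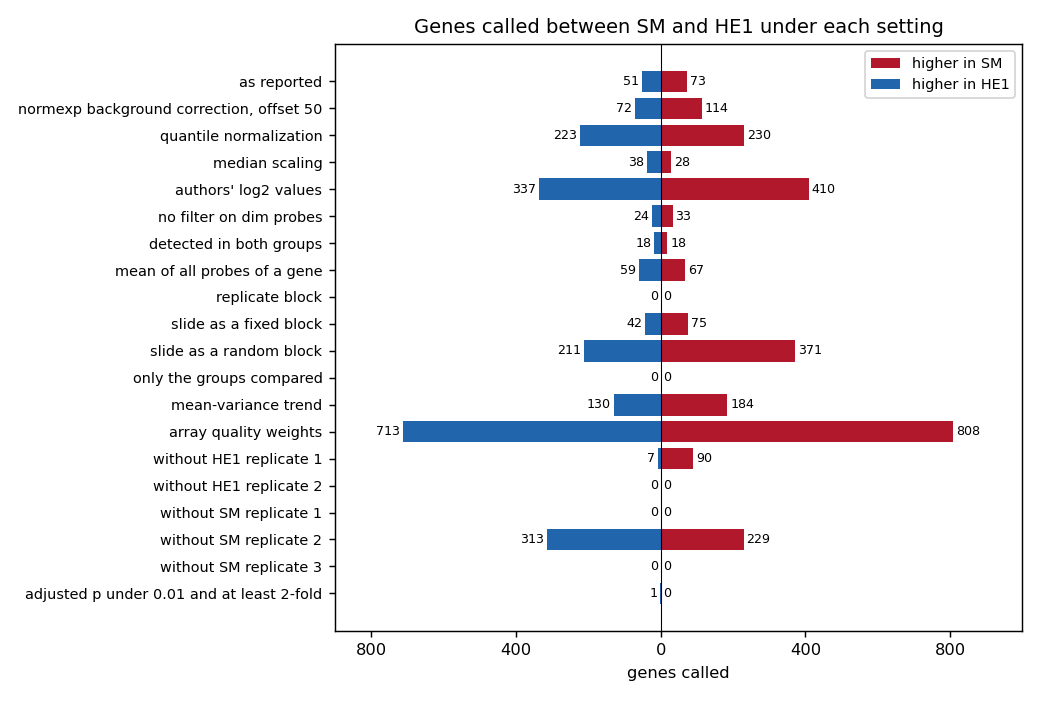
Number of genes called higher in SM (red, to the right) and higher in HE1 (blue, to the left) under each setting (vertical axis). The counts ranged from 0 to 808 and from 0 to 713.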

How the data were processed

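The authors sorted cells, labelled low-input RNA with Cy3 and hybridised it to one-colour Agilent arrays. Per the file headers, the deposited intensity values of each spot were background-subtracted and detrended with Agilent Feature Extraction 10.7.3.1 (10.7.1.1 per the labels) and were not scaled between arrays. The authors also deposited a table of log2 values, processed with limma by steps not given in the sources used here and with column medians of 5.98 to 6.0, which served as an alternative. The spot files carry their own gene symbols.

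Outlier spots were removed, spots of one probe were averaged, and log2 signals were scaled to the 75th percentile of each array. Where a gene had several probes, the one of highest mean signal on the 27 arrays was kept. Of 37208 genes or transcripts, those well above background on all arrays of SM or of HE1 were tested with limma 3.58.1 in R 4.3.3, by group means over all 27 arrays in 13 groups (14 residual and 4.27 prior degrees of freedom), with a Benjamini-Hochberg adjustment. A gene was called at an adjusted p under 0.05 and a difference of at least 2-fold. A gene with no array of the lower group well above background was given as a bound. The change of the difference with DOX was the interaction contrast. Tables and figures were made with Python 3.11.15, pandas 2.3.3, numpy 2.4.6 and matplotlib 3.10.9. The fit was checked on simulated data.

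The comparison, its members and the 31 gene lists were chosen with earlier results of these data known. Named were the 12 largest called differences in each direction, called list members, sorting markers, AP-1, TEAD and CDK inhibitor genes, genes the study named for these arrays, and the 3 smallest p-values for the change with DOX. Other genes served as examples of their lists and were picked with their values in view. The listed symbols Ahsp, Cd68, Col12a1, Col6a3, Hspa1b and Smpx were not matched. Other settings of background correction, scaling, filter, probe choice, blocks, variance model, weights and thresholds were run, and each array was left out in turn. Some genes are not reported here.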

Additional observations from a re-analysis of the deposited data

How the results depend on the processing

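The counts of genes called, 73 higher in SM and 51 higher in HE1, were not stable, and the cause was not tested except where a setting itself changes the genes or samples used. They came to 114 and 72 with normexp background correction, 230 and 223 with quantile normalization, 28 and 38 with median scaling, 410 and 337 with the authors' log2 values, 33 and 24 with no filter on dim probes, and 18 and 18 with probes well above background in both groups. They came to 67 and 59 with the mean of all probes of a gene, 75 and 42 with the slide as a fixed block, 371 and 211 with the slide as a random block, 184 and 130 with a mean-variance trend, 808 and 713 with array quality weights, 0 and 0 with only the arrays compared, and 0 and 1 (Ldb2) at an adjusted p under 0.01. Of the reported genes, 28 and 44 were called with normexp, 38 and 28 with the slide as a fixed block, and 58 and 50 with the authors' values. Leaving out each array in turn gave 0 to 229 genes higher in SM and 0 to 313 higher in HE1, the highest without SM replicate 2. The share of calls that pointed to SM was 58.9% as reported, 42.3% without SM replicate 2 and 92.8% without HE1 replicate 1.

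Replicate numbers could not be taken as pairs, since the labels name no shared culture and there were only 2 numbers in common. With a replicate block 0 and 0 genes were called (limma, smallest adjusted p 0.0611, 1928 genes at an unadjusted p under 0.05), a fit in which SM replicate 3 adds nothing to the difference. Deviations of replicate 1 from 2 correlated between HE1 and SM at r = 0.271 over genes, and at 0.463 when arrays were matched by slide. The change of the difference with DOX gave 0 calls in every setting, with 21 to 395 genes at an unadjusted p under 0.05. Over 117 named genes, 1569 of 2084 values kept their direction and their side of the threshold, 109 passed it anew and 379 no longer passed it. The other 27 changed sign, all in genes not called as reported. These were Myh11 (-0.35), Myo1f (-0.42), Jund (0.00012) and Cdkn1a (0.074) with normexp, Jund (0.062), Cdkn1a (0.063) and Wwtr1 (0.12) with median scaling, Atf2 (-0.16) with the probe mean, Nrp1 (-0.096), Cdkn1a (0.035) and Jund (0.25) with the slide as a fixed block, Jund (0.047) with it as a random block, and Cdkn1b (-0.094), Yap1 (-0.12), Atf3 (0.072) and Jund (0.082) with array weights. Junb (-0.40) and Cdkn2d (0.023) changed sign with the replicate block. With each array left out in turn, genes whose value changed sign ranged from -0.76 to 0.31 for Cdkn1a, -0.048 to 0.72 for Cdkn1b, -0.040 to 0.89 for Cdkn2a, -0.81 to 0.023 for Cdkn2d, -0.40 to 1.02 for Junb, -0.49 to 0.24 for Jund, -0.41 to 1.43 for Vegfa and -0.62 to 0.30 for Wwtr1. For dim genes the signal over background limits the size of a difference.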

Other observations

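Among the genes called higher in SM cells were some that none of the lists holds, and these were picked after their values were seen. Ptgs2, which encodes the inducible cyclooxygenase of prostaglandin synthesis, had log2 signals of 1.10, 0.64 and 1.16 on the SM arrays and -1.47 and -3.33 on the HE1 arrays, a difference of 3.37 (SE 0.51, adjusted p = 0.0204). Cthrc1, a secreted protein of remodelling vessels, was not well above background on either HE1 array and was at least 7.3-fold higher in SM cells (limma, adjusted p = 0.0463). That bound did not hold in every fit: the difference was 0.59 (adjusted p = 0.696) with normexp and 2.00 (adjusted p = 0.106) with the authors' log2 values, neither of them called. Otx2, a homeobox factor known from epiblast and anterior neural tissue, differed by 3.30 (SE 0.63, adjusted p = 0.0291). Ntf3, which encodes neurotrophin-3, differed by 2.91 (SE 0.58, adjusted p = 0.0327), and Mras, a small GTPase gene, by 2.10 (SE 0.40, adjusted p = 0.0291). Cthrc1 and Ntf3 were not called with the slide as a fixed block (adjusted p = 0.0598 and 0.0598). Otx2 and Ntf3 were well above background on 1 of the 2 HE1 arrays, and a second Mras probe gave 0.75. For each of these genes the groups did not overlap. With DOX, the differences were 2.64 for Ptgs2, 2.72 for Cthrc1, 2.54 for Otx2, 2.58 for Ntf3 and 1.65 for Mras.

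Among the genes called higher in HE1 cells was Tgm2, a transglutaminase gene, which had the smallest difference of the 51 called genes, -2.02 (SE 0.39, adjusted p = 0.0291), with 3.19 and 2.93 on the HE1 arrays and 1.47, 0.61 and 1.03 on the SM arrays. It was also called with DOX, where it differed by -2.33 (limma, adjusted p = 0.0421).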
